A study of Mus musculus with 148 samples.

Results

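The genes of 4 myeloid C-type lectin receptors, Clec4n, Clec4d, Clec4e and Clec7a, were described across the monocyte, macrophage, dendritic cell (DC) and neutrophil subpopulations of a mouse model of breast cancer lung metastasis. They are 4 of 52542 gene rows, and all 4 were found in the count tables. They were chosen by their measured levels across these subpopulations, so their levels across subpopulations are given as a description with no test. The cells came from PA-GFP C57BL/6 mice, a strain that carries a photoactivatable fluorescent reporter, so that cells of a chosen region can be lit up and sorted. All mice were female. EO771 breast cancer cells marked with tdTomato were placed in a mammary gland of mice of 8 weeks of age, and the tumors were removed 3 weeks later. The groups were control lungs (labelled normal, 3 mice), Pre-MET lungs taken while the primary tumor was still in place (3 mice), the primary tumors themselves (4 mice, 3 of them the Pre-MET mice), and lungs of mice that stayed relapse-free (6 mice). From mice with metastases came distal normal lung tissue (14 mice), dissected metastases (13), photoactivated metastasis cores (13) and photoactivated invasive margins (7). Cells were sorted as CD31- CD45+, or as CD31- cells with activated GFP for the photoactivated regions, with CD45 in the gate as well for the core of mouse 17. The relapse-free lungs of mice 6 and 7 were also sorted in part as CD31- cells with activated GFP and in part as CD31- CD45+ cells without it, and their gates were summed. All tumors came from the same cell line, so these groups stand for 1 tumor model. The status label set the margin and core groups, although the margin of mouse 17 had a photoactivation target labelled NON-MET and the margins of mice 31 to 36 an area labelled MET.

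The products of these genes are receptors on myeloid cells that bind sugars and glycolipids of microbes and ligands of damaged cells. Clec4n encodes Dectin-2, Clec4d encodes MCL (also named Dectin-3), and Clec4e encodes Mincle. These 3 receptors signal through the Fc receptor gamma chain, the product of Fcer1g. Clec7a encodes Dectin-1, which binds beta-glucan and carries its own signalling motif. All of them recruit the kinase Syk, and Syk acts through the adaptor Card9 on NF-kB and so on cytokine and chemokine genes. MCL and Mincle are known to pair with each other, and MCL raises the amount of Mincle on the cell surface.

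Clec4n, Clec4d and Clec4e lie side by side on mouse chromosome 6 (GENCODE vM21, build GRCm38). Clec4n spans 123229843 to 123247021 on the plus strand, Clec4d spans 123262111 to 123275265 on the plus strand, and Clec4e spans 123281789 to 123289870 on the minus strand. Between Clec4n and Clec4d there are 15089 bases and between Clec4d and Clec4e there are 6523 bases, with 0 annotated genes in either gap. Clec7a lies on the same chromosome at 129461591 to 129472779 on the minus strand, 6171720 bases from Clec4e with 246 annotated genes between them, and this annotation types it as a polymorphic pseudogene. Clec4d and Clec4e are the neighbours whose levels followed each other across subpopulations (Pearson's r = 0.926), so their start regions are shown with that of Clec7a, whose levels did not follow theirs. The sequences are RefSeq windows of GRCm38.p6 from 250 bases before to 50 bases after the start of transcription, found for 3 of the 4 genes, and capitals mark motif matches.
Clec4d, chr6:123261857-123262156, plus strand: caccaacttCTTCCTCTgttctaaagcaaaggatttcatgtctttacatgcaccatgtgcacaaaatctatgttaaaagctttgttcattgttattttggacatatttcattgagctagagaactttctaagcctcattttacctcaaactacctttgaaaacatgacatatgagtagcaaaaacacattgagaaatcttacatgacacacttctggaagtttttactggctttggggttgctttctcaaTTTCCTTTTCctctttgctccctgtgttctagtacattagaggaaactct
Clec4e, chr6:123289822-123290121, minus strand: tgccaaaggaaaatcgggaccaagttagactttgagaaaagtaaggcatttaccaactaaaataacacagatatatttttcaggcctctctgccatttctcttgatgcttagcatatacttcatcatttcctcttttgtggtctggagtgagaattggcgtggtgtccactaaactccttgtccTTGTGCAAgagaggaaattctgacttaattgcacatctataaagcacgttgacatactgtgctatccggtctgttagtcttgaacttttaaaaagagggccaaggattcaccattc
Clec7a, chr6:129472730-129473029, minus strand: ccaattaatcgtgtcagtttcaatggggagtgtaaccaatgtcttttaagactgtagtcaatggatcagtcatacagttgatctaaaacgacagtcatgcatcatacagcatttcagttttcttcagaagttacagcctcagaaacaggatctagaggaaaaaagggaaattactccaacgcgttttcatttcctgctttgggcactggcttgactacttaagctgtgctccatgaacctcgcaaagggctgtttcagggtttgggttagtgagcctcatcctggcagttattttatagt
Both strands were searched for the letters TGANTCA (AP-1), TTGCNNAA (C/EBP), and AGAGGAAG or AGGGGAAG (PU.1), and for the NF-kB motif and the ISRE, the interferon response element. The Clec4d window held a PU.1 match on the minus strand 241 bases before the start and an ISRE match on the minus strand beginning at the start. The Clec4e window held a C/EBP match on the minus strand 66 bases before the start, and the Clec7a window held no match to these letters. Over 32851 start windows of the same length, 7.24% held the PU.1 letters, 3.44% the ISRE letters and 10.8% the C/EBP letters. A match is a description of letters, not of a bound site.

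The values came from 148 plates of single cells, which were pooled by mouse and tissue into 63 samples of 27 mice. Of 23425 immune cells that the authors annotated, 13014 were myeloid, and they carried 17 subpopulation labels. Counts of unique molecular identifiers (UMIs, 1 per captured mRNA molecule) were summed per mouse, tissue and label where there were at least 10 cells, and expressed as CPM (UMIs of the gene per 1000000 UMIs of the sum). This gave 285 myeloid sums of 10 to 377 cells with a median of 49195 UMIs (5720 to 731354), so 1 UMI is a large step in the shallow sums, and many zeros are counts of 0 in few molecules. The median cell held 6115 UMIs in primary tumors and between 926 and 1314 UMIs in the other tissues. The labels were in general borne out by marker genes, with limits. In Mon_Ace the macrophage markers summed to 4129.4 CPM against 3922.5 CPM for the monocyte markers. Dendritic cell markers, led by H2-Ab1, exceeded those of the own lineage in Mon_MHC-II (20822 against 3404.8 CPM) and Mac_Cd81 (22252 against 19411 CPM). The neutrophil markers summed to 18344 CPM in Neut_PMN-MDSC against 99031 to 416030 CPM in the other neutrophil labels, with S100a8 still the leading one. In Mac_Isg20 the macrophage markers summed to 5734 CPM, with Apoe leading, against 17492 to 21242 CPM in the other macrophage labels. In wells left without a cell the 4 genes had 2, 2, 1 and 1 UMIs among 8490, so a free background could not be set at 0. T cells, which should lack these receptors, had mean levels of 9.91 ± 18.9 CPM for Clec4n, 11.6 ± 23.4 for Clec4d, 9.51 ± 19.7 for Clec4e and 10.4 ± 23.6 for Clec7a (SD, n = 61 samples).

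Clec4n, the Dectin-2 gene, had its highest label means in Neut_PMN-MDSC and Mac_Isg20, and was low in the other neutrophils. Its mean level was 2526 ± 2061 CPM in Neut_PMN-MDSC (SD, n = 5) and 1989.8 ± 559 CPM in Mac_Isg20 (n = 15). Then came Mac_Cd81 at 1131 ± 328 CPM (n = 9), Mac_Gpnmb at 965 ± 577 CPM (n = 14) and Mon_Thbs1 at 927 ± 554 CPM (n = 25). Mac_Cd9, the label whose leading markers include the alveolar macrophage gene Chil3, had 459 ± 258 CPM (n = 11). cDC2 had 424 ± 331 CPM (n = 16), and Mon_MHC-II had 364 ± 486 CPM (n = 23). The remaining labels ranged down to 0 in the 4 sums of Neut_Camp, and the most frequent monocyte label, Mon_Fn1, had 90.6 ± 152 CPM (n = 54). These means pool tissues that contributed unequally to the labels: in Mon_MHC-II Clec4n was at 1099.9 ± 272 CPM in primary tumors (n = 4) and 0 in Pre-MET lung (n = 3), and 4 of the 9 sums of Mac_Cd81 were from primary tumors. Of neighbours in this order, Mac_Isg20 and Mac_Cd81 alone differed by more than the larger of their SDs.

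The high mean of Neut_PMN-MDSC rested on metastases. Its 5 sums held 10 to 30 cells each. Clec4n stood at 5029.8 CPM and 3278 CPM in metastasis cores (mice 17 and 37), at 3484 CPM and 835 CPM in metastases (mice 31 and 32), and at 0 in the 11 cells of a relapse-free lung (mouse 7). The same relapse-free cells had 847 CPM of Clec4d and 1223 CPM of Clec4e, and 0 of Clec7a. The 4 metastasis samples lay above the relapse-free one for all but Clec4e, where mouse 31 was lower at 581 CPM. The place of this label in each order rests on these few sums. Without the core of mouse 17 its Clec4n mean was 1899 CPM, below Mac_Isg20, and with sums of at least 20 cells, which left the 2 cores, it was 4154 CPM. Its Clec4d mean was 3654 CPM in these 2 cores, and with cells of at least 1000 UMIs (2 sums) it was 3943 CPM for Clec4d and 2649 CPM for Clec4e.

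Clec4d and Clec4e, the MCL and Mincle genes, had the same 4 neutrophil labels at the top (Neut_PMN-MDSC, Neut_Ptgs2, Neut_Ifit3 and Neut_Lcn2) and the 3 DC labels at the bottom, with the other labels between them in a different order. Clec4d had 2212 ± 1385 CPM in Neut_PMN-MDSC (n = 5), 1435 ± 692 CPM in Neut_Ptgs2 (n = 29), 1179 ± 395 CPM in Neut_Ifit3 (n = 16) and 1044 ± 424 CPM in Neut_Lcn2 (n = 24). Mac_Isg20 followed at 985 ± 367 CPM (n = 15), Mac_Gpnmb at 589 ± 236 CPM (n = 14) and Mon_Thbs1 at 501 ± 301 CPM (n = 25). The other 9 labels had 160 CPM or less, down to 11.8 CPM in cDC1 (5.33 CPM without the margin of mouse 17) and 0 in migDC. For Clec4d the steps from Mac_Isg20 to Mac_Gpnmb and from Mon_Thbs1 to the next label exceeded the larger SD, and no other step did.

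Clec4e had 1755 ± 854 CPM in Neut_Ptgs2 (n = 29), 1579.7 ± 741 CPM in Neut_PMN-MDSC (n = 5), 1222 ± 523 CPM in Neut_Ifit3 (n = 16) and 1168 ± 548 CPM in Neut_Lcn2 (n = 24). In Neut_Camp, the label named for the granule gene Camp, Clec4e was still at 864 ± 231 CPM (n = 4). Clec4d was at 160 ± 80.3 CPM and Clec4n at 0 there. Mon_Thbs1 had 615 ± 242 CPM and Mac_Isg20 511 ± 340 CPM of Clec4e. The step from Neut_Camp to Mon_Thbs1 was the only one above the larger SD. The lowest levels were again in DCs, with 31.6 ± 64.1 CPM in cDC2 and 0 in migDC.

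Clec7a, the Dectin-1 gene, was found in every myeloid lineage, and no step between neighbouring labels exceeded the larger SD. Neut_PMN-MDSC had 1475 ± 1339 CPM (n = 5), Neut_Ptgs2 1056 ± 831 CPM (n = 29) and Mac_Cd9 895 ± 210 CPM (n = 11). Without the metastasis of mouse 31, at 3557 CPM, the mean of Neut_PMN-MDSC was 954 CPM, below that of Neut_Ptgs2. Between 264 CPM and 736 CPM lay 12 labels, among them all 4 monocyte labels (283 to 448 CPM) and all 3 DC labels with values (294 to 343 CPM, with cDC1 at 184 CPM without the core of mouse 30). Neut_Camp was lowest at 50.6 ± 49.6 CPM (n = 4). Mac_Isg20 and Mac_Cd81, among the highest labels for Clec4n, were near the bottom for Clec7a at 265 ± 188 CPM and 264 ± 244 CPM. Mac_Cd9 was the lowest of the 4 macrophage labels for Clec4n and the highest for Clec7a.

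**Figure D1:**
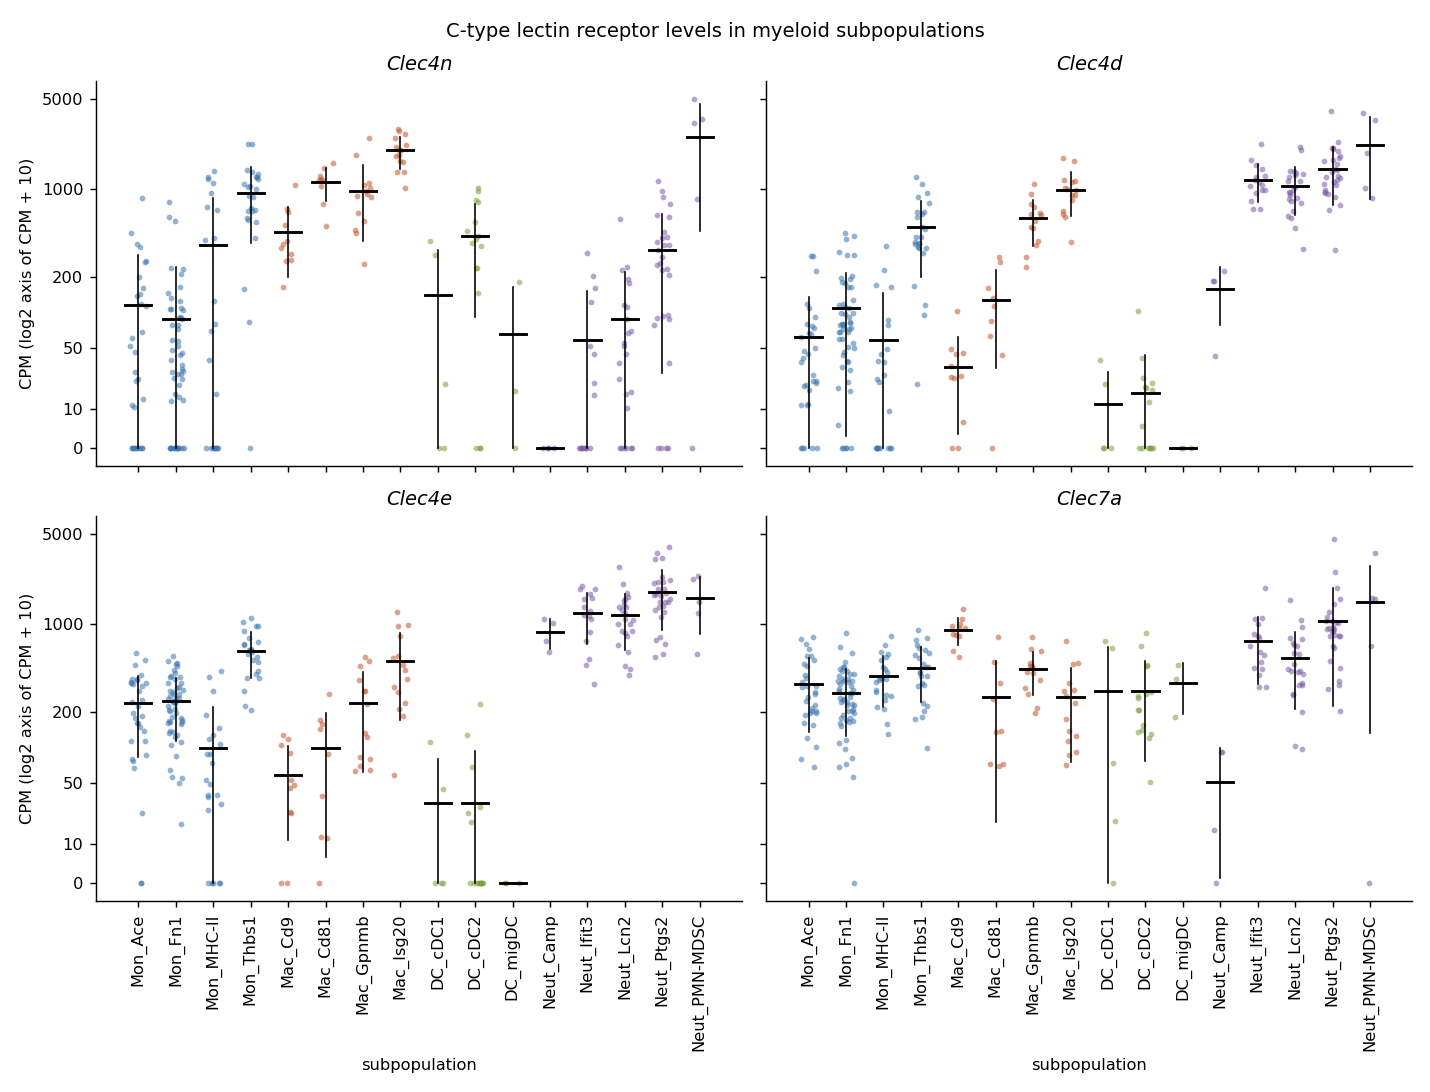
Levels of the 4 genes in 16 myeloid subpopulations with at least 3 samples, as CPM on a log2 axis of CPM + 10. Each point is the sum of 1 mouse, tissue and label (at least 10 cells), colours mark monocytes, macrophages, DCs and neutrophils, horizontal bars are means and vertical bars SDs (cut at 0). Clec4n peaks in Mac_Isg20 (1989.8 CPM) and Neut_PMN-MDSC (2526 CPM), and Clec4d and Clec4e in neutrophils, while 12 labels lie between 264 CPM and 736 CPM for Clec7a.

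Detection was then counted cell by cell. Each cell was thinned to 500 UMIs, so that deep and shallow cells can be compared, and a gene was counted as seen with at least 1 UMI. Clec4n was seen in 29.3% of macrophages, 6.98% of monocytes, 6.15% of DCs and 5.56% of neutrophils, against 0.526% of T cells. Without thinning these shares were 48.1%, 14.2%, 13.4% and 7.93%, against 1.2% of T cells. Clec4d was seen in 31.7% of neutrophils, 16.1% of macrophages, 6.14% of monocytes and 0.530% of DCs, against 0.614% of T cells, so DCs were not above the background. Clec4e was seen in 34.9% of neutrophils, 10.7% of monocytes, 8.60% of macrophages and 0.636% of DCs, against 0.555% of T cells. Clec7a was seen in 18.2% of neutrophils, 14.9% of macrophages, 11.2% of monocytes and 7.00% of DCs, against 0.657% of T cells. The median depth was 989 UMIs in neutrophils, 997 UMIs in T cells and 1452 to 1673 UMIs in the other 3 lineages.

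Cells with a UMI of 2 or more of the receptor genes were then counted. At 500 UMIs per cell, at least 2 of the 4 were seen in 46.0% of 139 Neut_PMN-MDSC cells, 31.4% of 494 Mac_Isg20 cells, 29.3% of 1492 Neut_Ptgs2 cells and 20.9% of 1109 Mon_Thbs1 cells. The shares were 22.4% over all neutrophils, 15.5% over macrophages and 5.74% over monocytes, against 0.0292% of T cells. Clec4n and Clec4d together were seen in 21.6% of Neut_PMN-MDSC cells and 15.8% of Mac_Isg20 cells, but in 3.62% of Neut_Ptgs2 cells, where Clec4n itself was rare. Singly, Clec4n was seen in 38.8% and Clec4d in 41.0% of Neut_PMN-MDSC cells, and in 49.2% and 33.2% of Mac_Isg20 cells. The shares that independent detection of the genes would give were not computed. Whether the genes go together within cells of a label was therefore not tested. The cells of a label share samples, so these shares are descriptions of the cells at hand.

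**Figure D2:**
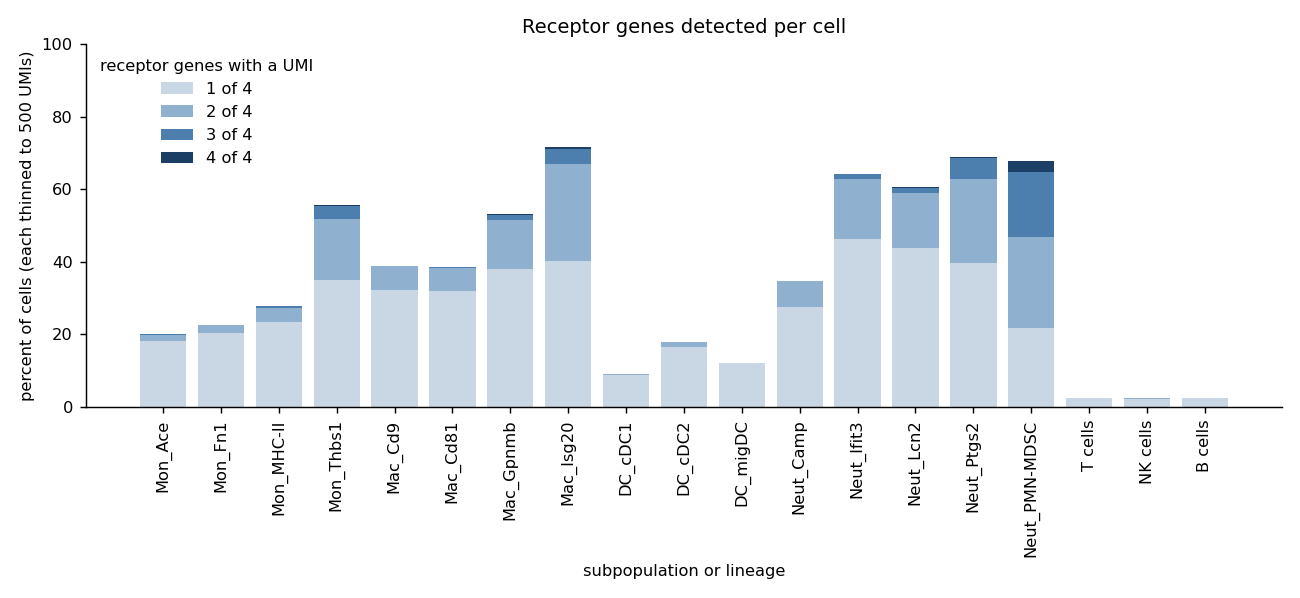
Percent of cells in which 1, 2, 3 or 4 of the 4 receptor genes had a UMI, with every cell thinned to 500 UMIs, for 16 myeloid subpopulations and 3 lymphocyte lineages. At least 2 genes were seen in 46.0% of Neut_PMN-MDSC cells and 31.4% of Mac_Isg20 cells, and lymphocytes show the background (0.0292% of T cells).

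Across the 16 labels, Pearson's r of log2(mean CPM + 10) was 0.926 between Clec4d and Clec4e, which placed each among the 6 most similar of 7487 genes for the other. All other pairs were lower: 0.517 for Clec4n and Clec7a, 0.398 for Clec4d and Clec7a, 0.315 for Clec4n and Clec4d, 0.235 for Clec4e and Clec7a, and 0.04 for Clec4n and Clec4e. By Spearman's rho the order of these lower pairs changed, with 0.126 for Clec4n and Clec7a and 0.426 for Clec4e and Clec7a, while Clec4d and Clec4e stayed at 0.941. The labels share samples, batches and depth, and the values are given with no p. The genes most like Clec4d were Lilr4b (0.943), Ier3 (0.939), Cd14 (0.935, the lipopolysaccharide co-receptor), Slc7a11 (0.927, a cystine transporter) and Cxcl2 (0.926, a neutrophil-attracting chemokine). Those most like Clec4e were Cd14 (0.944), Lilr4b (0.944), Plaur (0.931, the urokinase receptor), Tarm1 (0.927) and Clec4d. Those most like Clec4n were Cstb (0.905, a cysteine protease inhibitor), Ubxn4 (0.895), Hspa5 (0.886, an endoplasmic reticulum chaperone), Cdkn1a (0.885, a cell cycle inhibitor) and Spp1 (0.884, osteopontin). Clec7a came closest to Bptf (0.881), Ier5 (0.878), Arrdc4 (0.868), Gse1 (0.846) and Cab39 (0.837).

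Tissues were then compared within lineages, with the UMIs of all monocytes, macrophages, DCs or neutrophils of a sample summed. A sum cannot tell fewer cells of a subpopulation from less RNA per cell. The receptor genes were chosen by their levels across subpopulations, so their sums can follow the shares of those subpopulations. The percent of all genes that passed is therefore given as a description, and not as a chance rate for genes chosen with these data known. Every fit was made across all genes that passed the low-count filter with edgeR's quasi-likelihood test, and adjusted p-values are Benjamini-Hochberg values over those genes.

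In monocytes of metastases, Clec4n and Clec4d were higher than in distal normal lung, and Clec4e and Clec7a did not pass the test. Clec4n ranged from 0 to 305 CPM with a median of 59.8 CPM in 14 distal normal samples, and from 47.8 to 684 CPM with a median of 330.2 CPM in 13 metastases. It was higher in the metastasis of 13 of 13 mice with both tissues, although the groups overlapped. Clec4n rose by a log2 fold change of 2.09 ± 0.39 (SE, adjusted p = 0.00144). Clec4d ranged from 0 to 133 CPM with a median of 51.7 CPM in distal normal lung, and from 64.1 to 507 CPM with a median of 157 CPM in metastases. It was higher in the metastasis in 12 of 13 mice and rose by 1.74 ± 0.32 on the log2 scale (adjusted p = 0.000925). In this comparison 1.19% of the 2098 genes tested passed, all of them upward, with Clec4n and Clec4d among them. Since the receptor genes were chosen on these data, this percent does not show that they passed more often than chance would give. A permutation test of log2(CPM + 10) gave p = 0.00038 for Clec4n and 2e-05, the smallest value it can give, for Clec4d. Neither this test nor the edgeR fit above paired the tissues by mouse.

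Clec4e had a median of 235 CPM (38.5 to 427) in monocytes of distal normal lung and 378 CPM (121 to 830) in metastases, and was higher in the metastasis in 12 of 13 mice. Its log2 fold change of 0.73 ± 0.27 did not pass (adjusted p = 0.291), and passed with mouse as a block (0.77, adjusted p = 0.0123), in the 13 mice with both tissues and so without the distal normal sample of mouse 17. In that blocked fit Clec4d fell below the low-count filter and was not tested. Clec7a had medians of 274 CPM and 340 CPM, was higher in 6 of 13 mice, and had a log2 fold change of -0.04 ± 0.24 (adjusted p = 0.997). Within each of the 3 sequencing batches that held both tissues, Clec4n (0.88 to 2.66), Clec4d (1.31 to 2.65) and Clec4e (0.44 to 1.07) were higher in metastases on the log2 scale. Here and below, a sum was given the batch that held most cells of its sample, so it could also hold cells of other batches.

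The make-up of the monocytes moved with the tissue. Mon_Thbs1, the monocyte label with the highest Clec4n, Clec4d and Clec4e, made up 5.28 ± 4.77% of monocytes in distal normal lung (SD, n = 14) and 25.5 ± 18.8% in metastases (n = 13). Without the Mon_Thbs1 cells, an alternative added after the data were seen, Clec4n and Clec4d no longer passed the low-count filter. When the filter was dropped as well, their log2 fold changes were 0.98 (adjusted p = 0.256) and 0.37 (adjusted p = 0.724). None of the 1688 genes tested without Mon_Thbs1 cells passed in edgeR, with 33 at an unadjusted p below 0.05. Neutrophil markers were not higher in the metastasis sums: all 10 of the list were detected in both groups, with a summed level of 1358 CPM (298 to 5415) in distal normal lung and 1088 CPM (201 to 5840) in metastases.

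**Figure D3:**
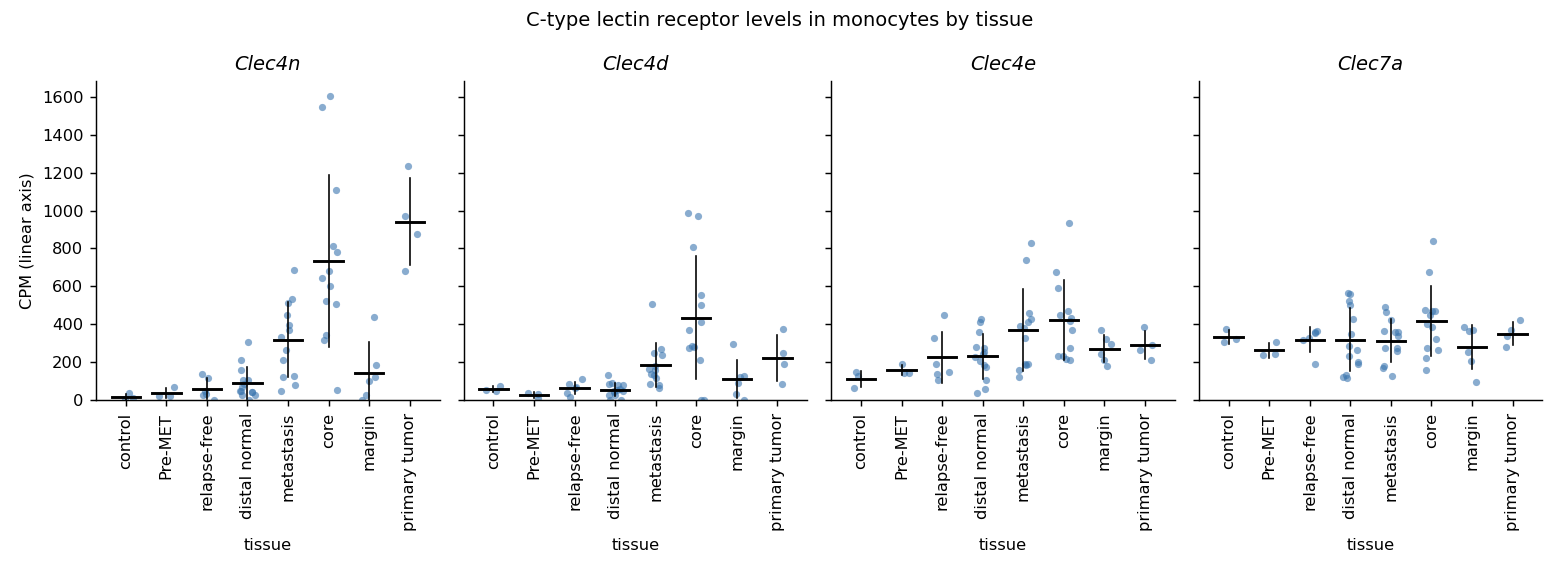
Levels of the 4 genes in monocytes of 8 tissues, as CPM on a linear axis. Each point is 1 sample with at least 10 monocytes, horizontal bars are means and vertical bars SDs (cut at 0). Clec4n means run from 17.0 CPM in control lung to 732 CPM in cores and 941 CPM in primary tumors, while Clec7a means stay between 262 and 416 CPM.

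In macrophages Clec4n was higher in metastases than in distal normal lung. It ranged from 226 to 706 CPM with a median of 394 CPM in 6 distal normal samples, and from 913 to 2106 CPM with a median of 1247 CPM in 9 metastases. Clec4n rose by 1.89 ± 0.32 on the log2 scale (edgeR, adjusted p = 0.000736), in 5 of 5 mice with both tissues, and an exact permutation test gave p = 0.0004. Again neither test paired the tissues by mouse. Here 9.23% of 1289 genes passed, and Clec4n was the only receptor gene among them. Clec4d ranged from 0 to 794 CPM (median 110 CPM) in distal normal lung and from 430 to 900 CPM (median 630.4 CPM) in metastases. Its log2 fold change of 1.53 ± 0.50 missed the threshold (edgeR, adjusted p = 0.055), with the distal normal sample of mouse 17, at 794 CPM, inside the range of the metastases. With mouse as a block, in the 5 mice with both tissues and so without mouse 17, it was 2.70 (adjusted p = 0.00211). With the sequencing batch as a term on all 15 samples it was 2.74 (adjusted p = 0.0004).

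Clec4e did not pass in macrophages (0.98 ± 0.56, edgeR adjusted p = 0.317), nor did Clec7a, which had the opposite sign (-0.37 ± 0.42, adjusted p = 0.692). Clec7a had a median of 608 CPM (56.6 to 860) in distal normal macrophages and 405 CPM (87.5 to 671) in metastases, and was lower in the metastasis in 4 of 5 mice. The 2 batches with both tissues gave higher values in metastases for Clec4n (1.68 and 2.06), Clec4d (0.87 and 3.57) and Clec4e (1.31 and 5.69), and lower values for Clec7a (-0.12 and -1.17). The labels behind the macrophage sums differed between the tissues. Mac_Cd9 made up 63.6 ± 25.2% of macrophages in distal normal lung (n = 6) and 7.65 ± 8.88% in metastases (n = 9), while Mac_Isg20 made up 7.19 ± 4.53% and 39.2 ± 18.0%. Mac_Gpnmb made up 16.9 ± 18.1% and 33.5 ± 8.57%, and Mac_Cd81 12.3 ± 7.89% and 19.6 ± 15.1%. The part of these shares in the gene differences was not tested, since none of these labels had 3 samples in both tissues.

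Mice without metastases gave further levels of these genes. In macrophages of control lungs, which were 92.6 ± 4.18% Mac_Cd9, Clec4n was at 368, 268 and 282 CPM in mice 1, 2 and 3, with a mean of 306 ± 54.3 CPM (n = 3), and Clec7a at a mean of 984 ± 113 CPM. Relapse-free lungs had 409 ± 224 CPM of Clec4n and 761 ± 148 CPM of Clec7a (n = 4), and 26.3 ± 18.5 CPM of Clec4d. Inside Mac_Cd9 cells alone, Clec4n had 311 ± 66.5 CPM in control (n = 3), 463 ± 254 CPM in relapse-free (n = 4) and 400.1 ± 110 CPM in distal normal lung (n = 3), and stood at 1064 CPM in the only metastasis sum.

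**Figure D4:**
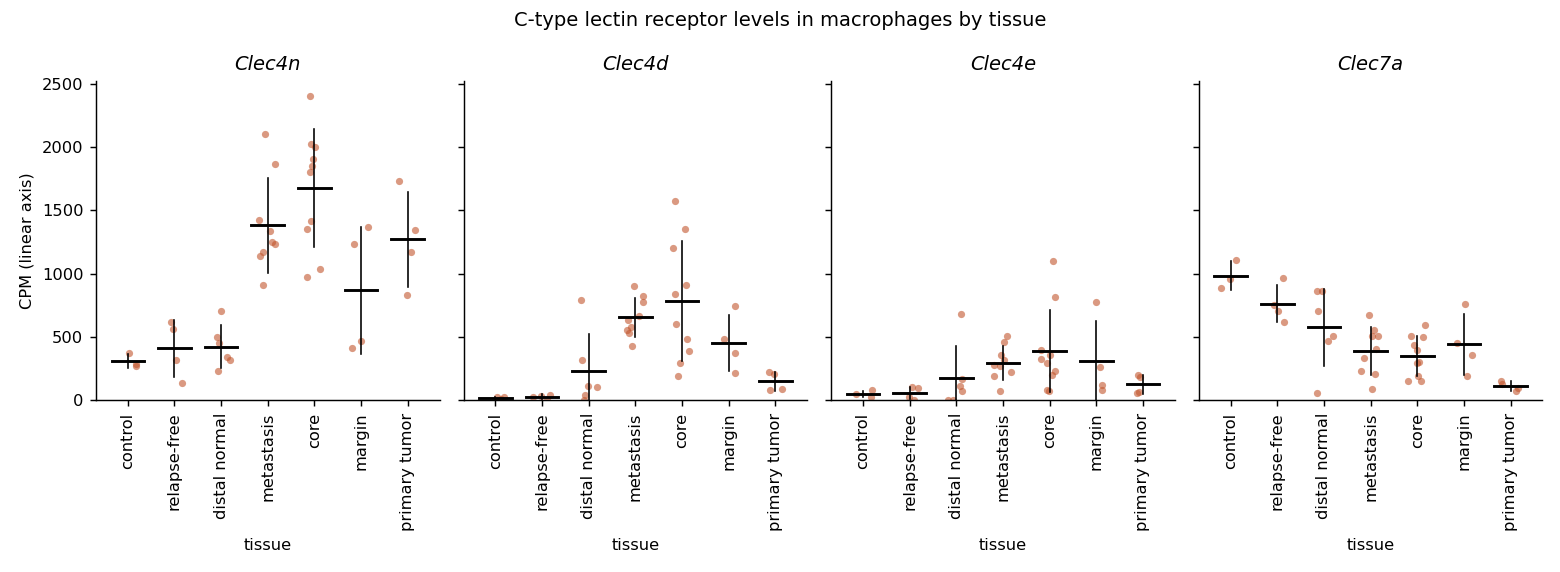
Levels of the 4 genes in macrophages of 7 tissues, as CPM on a linear axis. Each point is 1 sample with at least 10 macrophages, horizontal bars are means and vertical bars SDs (cut at 0). Clec4n lies between 226 and 706 CPM in distal normal lung and between 913 and 2106 CPM in metastases, and the means of Clec7a lie between 112 CPM in primary tumors and 984 CPM in control lung.

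In neutrophils no gene passed between distal normal lung and metastasis (0 of 715 in edgeR, 28 at an unadjusted p below 0.05, and 0 in DESeq2). Clec4d had medians of 981 CPM (726 to 1654) and 1126 CPM (561 to 2538) in 9 samples each, with a log2 fold change of 0.11 ± 0.23 (adjusted p = 0.993). Clec4e had medians of 1135 CPM and 1209.5 CPM (-0.06 ± 0.28, adjusted p = 0.993). Clec4n, low in most neutrophils, had medians of 51.1 CPM and 289 CPM (1.21 ± 0.50, unadjusted p = 0.0221, adjusted p = 0.993). Whether the change of Clec4d differed between monocytes and neutrophils was tested in 1 model over both lineages: the difference, neutrophils minus monocytes, was -1.45 ± 0.35 (adjusted p = 0.0984), where 0.0309% of 3236 genes passed. With at least 20 cells per sum it was -1.50 (adjusted p = 0.0463). No receptor gene differed between monocytes and macrophages in this way, with differences, macrophages minus monocytes, of -0.31 ± 0.41 for Clec4n and 0.56 ± 0.58 for Clec4e (adjusted p = 0.767 and 0.705), where 3.11% of 2666 genes passed.

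In DCs only Clec7a passed the low-count filter between distal normal lung (3 samples) and metastasis (10 samples), and 0 of 621 genes passed (46 at an unadjusted p below 0.05 in edgeR, and 0 in DESeq2). Clec4n was at 0 in 2 of 3 distal normal and 3 of 10 metastasis samples, and reached 39.0 CPM and 1378 CPM. Within cDC2, the DC label with most Clec4n, the mean was 49.3 ± 85.5 CPM in relapse-free lung (n = 3), 382 ± 346 CPM in metastases (n = 6), 612 ± 178 CPM in cores (n = 3) and 626 ± 295 CPM in primary tumors (n = 4).

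Inside metastases, the photoactivated core was compared with the invasive margin of the same mouse. In monocytes, Clec4n was at 682, 1603, 601, 522 and 811 CPM in the cores of mice 17, 26, 28, 31 and 36, and at 124, 0, 25.8, 184 and 98.1 CPM in their margins. In these 5 mice every core lay above every margin, and how many of all genes separate in this way was not counted. Samples without a pair overlapped, with Clec4n at 52.5 CPM in the core of mouse 32 and 439.9 CPM in the margin of mouse 33. Clec4n rose from margin to core by 3.14 ± 0.52 on the log2 scale (edgeR with mouse as a block, adjusted p = 0.00975), and 3.91% of 1354 genes passed. Exact sign flips gave p = 0.0625, the smallest value that 5 mice allow. Without mouse 17, whose margin had the target label NON-MET, it was 3.52 (adjusted p = 0.0131), and without mouse 31 or mouse 36, whose margins had the area label MET, it was 3.55 and 3.10 (adjusted p = 0.0125 and 0.0318). Without mouse 28 the change was 2.99 and did not pass (adjusted p = 0.131), and in each of 4 batches the core was higher (1.46 to 5.71). In a fit with no block the value was 2.63 (adjusted p = 0.042).

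Clec4d was at 503, 282, 988, 0 and 284 CPM in these cores and at 90.8, 32.3, 129, 0 and 120 CPM in the margins, higher in the core of every mouse but mouse 31, which had 0 in both. Clec4d fell below the low-count filter and so was not tested in edgeR. It passed there when the filter was dropped (2.53, adjusted p = 1.24e-05) and with sums of at least 5 cells (2.32, adjusted p = 0.00251). It also passed without mouse 26 (2.27, adjusted p = 0.0222) or mouse 31 (2.38, adjusted p = 0.0065). Exact sign flips gave p = 0.125 for Clec4d, where 0.0625 is the smallest value that 5 mice allow. Clec4e was at 590, 217, 935, 274 and 468 CPM in cores and at 321, 210.1, 181, 245 and 371 CPM in margins, higher in 5 of 5 mice, but did not pass (0.83 ± 0.32, adjusted p = 0.191). Clec7a did not pass either (0.76 ± 0.35, adjusted p = 0.285), and was lower in the core of mouse 28.

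Again the share of Mon_Thbs1 moved with the region, at 11.7 ± 12.1% of monocytes in margins (n = 6) and 43.7 ± 23.8% in cores (n = 13). Without these cells Clec4n was at 175, 330.4, 259, 643 and 445 CPM in cores and at 120, 0, 26.6, 196 and 119 CPM in margins of the same mice, still higher in each core. Its log2 fold change was then 1.79 (adjusted p = 0.108), with 0.444% of 1125 genes passing.

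**Figure D5:**
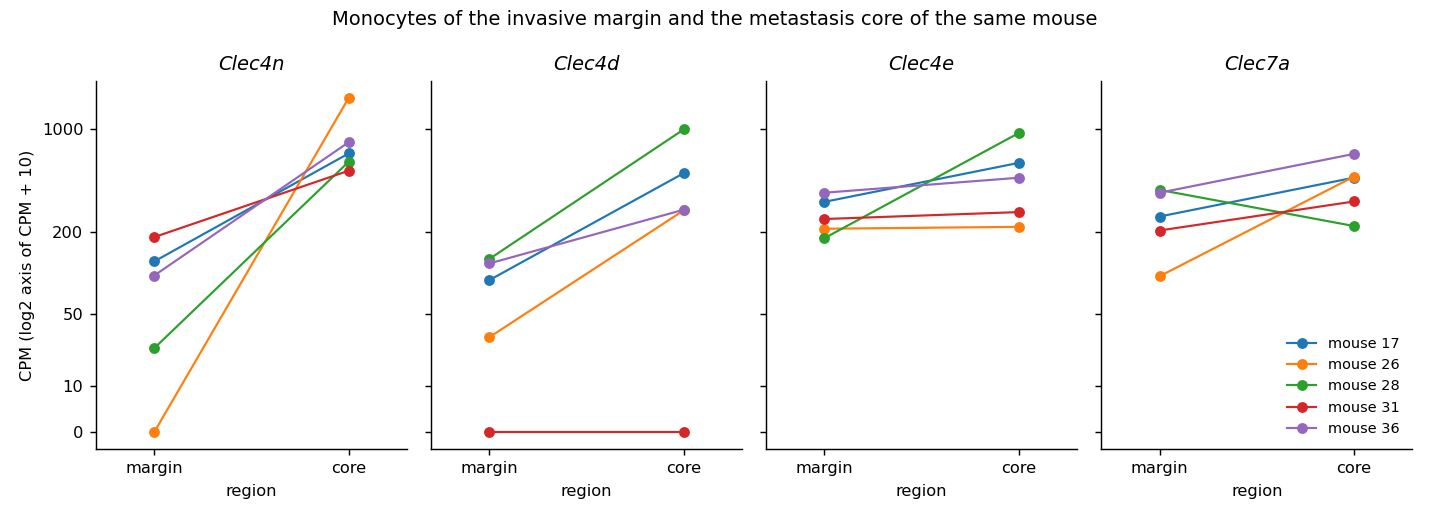
Levels of the 4 genes in monocytes of the invasive margin and the metastasis core of 5 mice, as CPM on a log2 axis of CPM + 10. Each line is 1 mouse. Clec4n is higher in the core of all 5 mice, with margins between 0 and 184 CPM and cores between 522 and 1603 CPM.

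In neutrophils of 4 mice, each of the 4 receptor genes was higher in the core than in the margin of each mouse, but none passed, where 0.408% of 245 genes did, and exact sign flips could not go below p = 0.125. Clec4n was at 977, 58.5, 660.4 and 2561 CPM in cores of mice 17, 26, 28 and 36 and at 257, 13, 0 and 81.4 CPM in margins. It was below the low-count filter, and passed without mouse 26 (3.28, edgeR adjusted p = 0.0306) or mouse 28 (2.86, adjusted p = 0.0205). Clec4d (0.81 ± 0.34) and Clec7a (0.96 ± 0.40) had an adjusted p of 0.336 each, and Clec4e (0.55 ± 0.32) one of 0.427. Neut_PMN-MDSC made up 0.466 ± 1.04% of neutrophils in margins (n = 5) and 19.99 ± 13.2% in cores (n = 6), and the part of this in the differences was not tested. Macrophages of margin and core could be paired in 2 mice only, so they were compared without pairing, a fit added after the data were seen: 0 of 1743 genes passed in edgeR, with 171 at an unadjusted p below 0.05. Clec4n was at 1369, 411, 465 and 1230 CPM in 4 margins (mice 17, 32, 33 and 36) and from 969 to 2402 CPM in 10 cores (0.85 ± 0.40, adjusted p = 0.472). A 2-sided exact permutation test gave an unadjusted p = 0.022 for Clec4n. For Clec4d, Clec4e and Clec7a the same test gave p = 0.268, 0.603 and 0.5. Mice 17 and 36 gave samples to both groups, so the samples permuted were not all independent. Clec4n was higher in cores in each of the 3 batches with both tissues. Mac_Gpnmb made up 79.4 ± 14.4% of macrophages in these margins and 23.5 ± 18.8% in cores, and Mac_Isg20 13.8 ± 13.5% and 56.4 ± 18.7%, and the part of this was not tested.

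Macrophages of the metastasis core had more Clec4d and Clec7a than those of the primary tumor, and Clec4n and Clec4e did not pass. Clec4d was at 208, 221, 79.4 and 88.6 CPM in the primary tumors of mice 8, 9, 10 and 38, and from 186 to 1577 CPM (median 716 CPM) in 10 cores, rising by 2.40 ± 0.50 (edgeR, adjusted p = 0.00348). Clec7a was at 93.4, 131, 153 and 69.5 CPM in the tumors and from 150.4 to 595 CPM (median 347 CPM) in cores, rising by 1.73 ± 0.42 (adjusted p = 0.0132). The groups overlapped narrowly for both genes, and exact permutation tests gave p = 0.00599 for each. Here 4.26% of 2162 genes passed. Clec4e did not pass (1.69 ± 0.56, adjusted p = 0.0913), and neither did Clec4n (0.43 ± 0.33, adjusted p = 0.582), with medians of 1259 CPM in tumors and 1829.9 CPM in cores.

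The Clec7a call depended on single tumors. Clec7a did not pass without the primary tumor of mouse 38 (1.54, edgeR adjusted p = 0.121) or mouse 9 (1.78, adjusted p = 0.0537), while Clec4d passed without each tumor in turn. With the sequencing batch as a term neither passed (Clec4d 1.29, adjusted p = 0.643, and Clec7a 2.28, adjusted p = 0.295). Only 1 batch held both tissues, with the tumor of mouse 8, and there Clec4d was 0.99 and Clec7a 1.95 higher in cores on the log2 scale. Immune cells of tumors also held more UMIs per cell than those of other tissues (above), and the part of this in the differences was not tested. By label, 80.9 ± 7.94% of the tumor macrophages were Mac_Cd81 (n = 4), against 19.7 ± 9.08% in cores (n = 10), where Mac_Isg20 made up 56.4 ± 18.7%. Within Mac_Cd81 cells Clec7a was 1.45 higher in cores and did not pass (edgeR, adjusted p = 0.157), where 7.42% of 1563 genes did. The neutrophil markers summed to 111 CPM (43.6 to 198) in tumor macrophages and 654 CPM in core macrophages at the median, and their part in the Clec4d difference was not tested.

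In monocytes of tumor and core no receptor gene passed, where 1.36% of 1835 genes did. Clec4n was at 1235, 876, 973 and 681 CPM in tumors and from 52.5 to 1603 CPM (median 644 CPM) in 13 cores (-0.44 ± 0.39, edgeR adjusted p = 0.724). Mon_MHC-II made up 44.6 ± 8.91% of monocytes in tumors and 11.8 ± 10.4% in cores, and Mon_Thbs1 37.8 ± 9.20% and 43.7 ± 23.8%. In Mon_Thbs1, Clec4n was at 927 ± 282 CPM in tumors (n = 4) and 1299.9 ± 646 CPM in cores (n = 8). In Mon_MHC-II it was at 1099.9 ± 272 CPM in tumors (n = 4) and at a mean of 959.6 CPM in the 2 core sums, but at 12.6 ± 21.8 CPM in control lung (n = 3), 0 in Pre-MET lung (n = 3) and 42.1 ± 40.0 CPM in relapse-free lung (n = 4). Without the Mon_Thbs1 cells Clec4n was lower in cores than in tumors by a log2 fold change of -1.85 (adjusted p = 0.0192), where 2.87% of 1428 genes passed. With the batch as a term on all monocytes it did not pass (-0.95, adjusted p = 0.832). In DCs 0.833% of 1081 genes passed and neither tested receptor gene did, with Clec4n at -0.80 ± 0.58 and Clec7a at 0.69 ± 0.52 (adjusted p = 0.633 and 0.678).

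Before metastases were present, no receptor gene passed. In monocytes of Pre-MET against control lung 4.22% of 4953 genes passed and none of the receptor genes did. Clec4d was at 53.8, 45.2 and 76.2 CPM in control mice 1, 2 and 3 and at 39.1, 33.3 and 11.3 CPM in Pre-MET mice 8, 9 and 10. The groups did not overlap, but how many of all genes separate in this way was not counted. The change of -1.08 ± 0.64 had an edgeR adjusted p of 0.402. With 3 mice against 3, an exact permutation p cannot go below 0.1. Clec4e (0.45 ± 0.36, adjusted p = 0.559) and Clec7a (-0.38 ± 0.23, adjusted p = 0.425) did not pass, and Clec4n, with 6.93 to 35.9 CPM in control and 20.8 to 66.5 CPM in Pre-MET lung, was below the filter. In neutrophils 1.06% of 377 genes passed. Clec4d was at 1539.9, 1082 and 1054 CPM in control and 571, 985 and 864 CPM in Pre-MET lung (-0.56 ± 0.40, adjusted p = 0.716), and Clec4e at 481, 994 and 1223 CPM against 2365, 1318 and 836 CPM (0.57 ± 0.45, adjusted p = 0.716). No DC sum of either group held a UMI of Clec4n, Clec4d or Clec4e. Control and Pre-MET plates shared no sequencing batch, so batch and group cannot be told apart.

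Inside single labels no receptor gene passed in any comparison: 0 of 14 tests for distal normal lung and metastasis, 0 of 8 for control and Pre-MET, 0 of 13 for tumor and core, and 0 of 1 for margin and core. Over all genes the same fits passed 0 of 3094, 0.394% of 5586, 2.67% of 7716 and 0 of 839 tests. The groups of these fits held 3 to 13 samples. For distal normal lung and metastasis the labels fitted were Mon_Ace, Mon_Fn1, Neut_Ifit3, Neut_Lcn2 and Neut_Ptgs2, and for margin and core Mon_Fn1 alone. The other labels, among them Mon_Thbs1, Mac_Isg20, Mac_Gpnmb and cDC2, lacked 3 samples in a group of either comparison and were not fitted there. Within Mac_Isg20, which had 3 or more samples in metastases and cores alone, Clec7a was at 151 ± 81.0 CPM in metastases (n = 8) and 394 ± 194 CPM in cores (n = 7), and Clec4n at 1887 ± 489 CPM and 2107 ± 648 CPM.

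The lists of pathway genes were compared by counts and medians. In lineage sums, none of 26 genes that carry the receptor signal, among them Fcer1g, Syk and Card9, passed between distal normal lung and metastasis. Of these, 14 were tested in monocytes and 7 in macrophages. None passed in the lineage sums of tumor and core or of margin and core either. Within labels of tumor and core, 2 of 12 tested were lower in cores in Mac_Cd81, where 7.42% of 1563 genes passed. In cDC2 1 of 17 was lower, where 18 of 2960 genes passed upward and 35 downward. In metastasis monocytes and macrophages 1.19% and 9.23% of all genes passed, in tumor and core 1.36% and 4.26%, and in margin and core monocytes 3.91%. Fcer1g, the shared gamma chain, changed by 0.23 ± 0.16 in metastasis monocytes and 0.64 ± 0.30 in metastasis macrophages (edgeR, adjusted p = 0.808 and 0.195). In Pre-MET monocytes 3 of 22 passed, against 4.22% of all genes: Pycard, the inflammasome adaptor, rose by 0.87 ± 0.20, and Rel, an NF-kB subunit, and Prkcd, a kinase downstream of Syk, fell by 1.43 and 1.27 on the log2 scale. Pycard did not pass without mouse 1, 3, 8 or 10 or with cells of at least 1000 UMIs, Rel without mouse 1, 2, 8, 9 or 10 or with such cells, and Prkcd without mouse 3, 9 or 10. Mon_Ace made up 59.0 ± 4.14% of monocytes in control lung and 22.6 ± 4.01% in Pre-MET lung, and Mon_Fn1 23.8 ± 0.944% and 69.6 ± 5.65%, and their part in these values was not tested.

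A list of 22 genes known as targets of the pathway, most of them cytokines and chemokines, was read in the same way. The low-count filter can admit a gene through the group where it is high alone. Signs and medians of the few genes tested are therefore given as descriptions. In metastasis monocytes 8 were tested, all 8 had positive values with a median of 1.10 against -0.01 over all genes, and 2 passed against 1.19% of all genes: Il1rn, the interleukin-1 antagonist, at 2.19 ± 0.39, and Ccl4 at 2.03 ± 0.44. Mon_Thbs1, which made up 5.28% of monocytes in distal normal lung and 25.5% in metastases, moved with them: without its cells both were below the low-count filter, and with no filter Il1rn was at 1.12 and Ccl4 at 0.73 (edgeR, adjusted p = 0.191 and 0.414). In metastasis macrophages Il1b (2.70 ± 0.43) and Il1rn (1.26 ± 0.37) passed of 9 tested, against 9.23% of all genes, with a median of 0.95 against 0.15, and Il1rn did not pass with mouse as a replicate block or batch as a term. From distal normal lung to metastases Mac_Cd9 went from 63.6% to 7.65% of macrophages and Mac_Isg20 from 7.19% to 39.2%, and the part of this was not tested. In core against margin monocytes Ccl2 (2.82 ± 0.57), Il1b (1.57 ± 0.26) and Cxcl2 (1.54 ± 0.41) passed of 7 tested, against 3.91% of all genes, with a median of 1.57 against -0.01. Mon_Thbs1 made up 11.7% of monocytes in margins and 43.7% in cores. Without its cells, where 0.444% of all genes passed, none of the 3 did: Il1b was at 1.05 and Cxcl2 at 1.47 (edgeR, adjusted p = 0.0711 and 0.108), and Ccl2 was below the low-count filter. Ccl2 also did not pass without mouse 17, 26, 28 or 31, nor Cxcl2 without mouse 26, 28, 31 or 36, with DESeq2 size factors or with cells of at least 1000 UMIs, and neither passed without the block. In core against margin neutrophils Ccl4 passed (4.61 ± 0.53) of 6, against 0.408% of all genes, but not without mouse 17 (4.53, adjusted p = 0.143), and the share of Neut_PMN-MDSC given above moved with it. In core against tumor macrophages Cxcl2 (3.17 ± 0.56), Ccl3 (2.21 ± 0.39) and Nfkbia (1.83 ± 0.52), an NF-kB inhibitor, passed of 8, against 4.26% of all genes. With batch as a term, where only 1 batch held both tissues, none of the 3 passed (adjusted p = 0.152, 0.19 and 0.152), and Nfkbia also did not pass without mouse 8, 9, 10 or 38, with no filter or with 5 cells. Mac_Cd81 made up 80.9% of these macrophages in tumors and 19.7% in cores, and their neutrophil markers differed as given above. The part of these in the changes was not tested. In Pre-MET neutrophils Ptgs2 fell by 2.23, and in core DCs Il12b fell by 5.40, each the only target gene to pass there (1.06% and 0.833% of all genes passed). Ptgs2 did not pass without mouse 1, 3, 9 or 10 or with no filter, nor Il12b without mouse 38, with batch as a term or with 5 cells. Neut_Ptgs2 made up 80.2 ± 6.95% of neutrophils in control and 33.0 ± 14.4% in Pre-MET lung (n = 3 each), and migDC 28.4 ± 5.42% of DCs in tumors (n = 4) and 10.4 ± 6.74% in cores (n = 7), and the part of this was not tested. Other stimuli drive these genes too, and they were listed with earlier results of these data known.

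Of the 29 other C-type lectin receptor genes listed, those that passed were lower. In metastasis macrophages Mrc1, the mannose receptor, fell by 1.91 on the log2 scale, 1 of 4 tested, against 9.23% of all genes. In core against tumor macrophages 4 of 8 tested fell: Mrc1 by 2.28, Clec4a1 by 2.27, Mgl2 by 2.14 and Clec4a3 by 1.45, where none rose and 4.26% of all genes passed. None of the 4 passed with batch as a term, Mrc1 and Mgl2 did not without mouse 9, 10 or 38, and Clec4a3 did not without mouse 10 or 38. Mrc1 also did not pass with at least 20 cells, nor Mgl2 with cells of at least 1000 UMIs. Mac_Cd9 made up 63.6% of macrophages in distal normal lung and 7.65% in metastases, and Mac_Cd81 80.9% in tumors and 19.7% in cores. The part of these shares in the changes was not tested. In monocytes none of the other C-type lectin receptor genes tested passed in any of the 4 comparisons (8 tested in Pre-MET, 5 in metastasis, 5 in core against tumor and 4 in core against margin).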

How the data were processed

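Single immune cells were sorted into plates and sequenced from the 3' end with UMIs. The authors mapped reads to mm10 with HISAT, left out reads with several hits, counted exons and collapsed UMIs, after base calling with bcl2fastq 2.15.0.4 per the submitters' processing notes. They discarded cells below 500 UMIs and labelled the rest by clustering. The deposited values are raw UMI counts per gene and well, and 0 columns of the tables were left unmapped. The labels come from clustering the same cells, and the 4 genes and all gene lists were chosen with earlier results of these data known.

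Here, the counts of annotated cells were summed per mouse, tissue status and label (or lineage) where at least 10 cells were present. CPM is per 1000000 UMIs of that sum, which holds 5720 to 731354 UMIs for a label, so values rest on counting error as well as on mice. No doublet caller was run on the annotated cells. Groups came from the status labels. Sums were compared with edgeR 4.0.16 (quasi-likelihood test, TMM scaling, its default low-count filter) in R 4.3.3 where both groups had at least 3 samples, with a threshold of 0.05 on Benjamini-Hochberg values over all genes tested. Margin and core were fitted with mouse as a block. The SE given with an edgeR log2 fold change is its absolute value divided by the square root of its F statistic. It is therefore approximate, and unstable for changes near 0. Single values were also tested two-sided by permutation (exact where a group had fewer than 10 samples) in scipy 1.17.1 on log2(CPM + 10). The scripts were tested on simulated data. The named genes were the 4 receptor genes in every fit, at most 4 list genes per comparison and lineage by size of change among those that passed, and 5 genes of like pattern per receptor gene (at least 50 CPM in a label).

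Pairing by mouse came from the labels. Deviations from the group mean correlated at a median of 0.13 within a mouse and -0.027 between mice for distal normal lung and metastasis monocytes, and at 0.202 and -0.063 for margin and core monocytes. Alternatives were DESeq2 1.42.0 and its size factors, no filter, 5 or 20 cells, cells of at least 1000 UMIs, batch as a term, the other block choice, and leaving out single mice. Each mouse was left out in turn for control and Pre-MET and for margin and core, and only each tumor for tumor and core. No mouse was left out in turn for distal normal lung and metastasis. Added after the data were seen were monocytes without Mon_Thbs1, label means without each sum in turn (labels of 3 to 5 sums), and unpaired macrophages of margin and core, with only each margin left out in turn.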

Additional observations from a re-analysis of the deposited data

Results flagged for a closer look

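In 56 groups of 4 to 10 samples, 3 held a sample that stood far from the rest by Dixon's test, which chance alone does in about 1 of 20 groups. Clec4d was at 128.9 CPM in the DCs of the metastasis of mouse 31, with the other 9 samples between 0 and 14.7 CPM. Clec4e was at 679.4 CPM in the macrophages of distal normal lung of mouse 23, with the other 5 samples between 0 and 170.1 CPM. Clec4d was at 2537.9 CPM in the neutrophils of the metastasis of mouse 36, with the other 8 samples between 560.8 and 1310.3 CPM.

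Wells that the authors labelled as erythrocytes or as outliers entered no comparison, and for some of the receptor genes their level was above that of control lungs. In 329 erythrocyte wells outside control lungs Clec4d was at 531.82 CPM and Clec4e at 554.83 CPM, against 0 and 99.78 CPM in 7 wells of control lungs. In 155 outlier wells outside control lungs Clec4n was at 558.7 CPM, Clec4d at 269.49 CPM and Clec7a at 197.19 CPM, against 0, 0 and 28.445 CPM in 10 wells of control lungs, while Clec4e was lower at 112 CPM against 228 CPM. The few control wells limit this comparison, and its cause was not tested.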

How the results depend on the processing

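The number of receptor genes that passed changed as follows, and where no cause is given the cause was not tested. For distal normal lung and metastasis it went from 1 to 2 in macrophages with no filter, mouse as a replicate block, DESeq2 or batch as a term, and from 2 to 1 in monocytes with cells of at least 1000 UMIs and to 0 without Mon_Thbs1 cells, with or without the filter. For margin and core it went from 1 to 2 in monocytes with no filter or 5 cells, and to 0 without Mon_Thbs1 cells; leaving out single mice gave 0 to 2 in monocytes and 0 to 1 in neutrophils. For tumor and core macrophages it went from 2 to 1 with no filter, to 0 with batch as a term, and was 1 to 2 without single tumors; in monocytes it went from 0 to 1 without Mon_Thbs1 cells. The block leaves out mice without both tissues, and it changed no other call than those named here and in the results for Clec4d and Clec4e in monocytes.

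Changes of sign were seen in log2 values that had not passed. Clec7a turned to 0.23 (control and Pre-MET neutrophils) and 0.21 (distal normal and metastasis macrophages) with no filter. In distal normal and metastasis monocytes Clec7a turned to 0.01 with no filter, and to 0.07 with batch as a term and on the permutation scale. In neutrophils of these tissues Clec4d turned to -0.04 with no filter and -0.28 with cells of at least 1000 UMIs, and Clec4e to 0.03 with 5 cells. For tumor and core, Clec7a turned to -0.18 in DCs on the permutation scale and, in monocytes, to -0.16 with no filter and -0.52 without both the filter and Mon_Thbs1 cells, and Clec4d to -0.97 with batch as a term. For unpaired margin and core macrophages Clec4e turned to -0.68 with batch as a term, -0.11 without the margin of mouse 17 and -0.05 without that of mouse 32, and Clec7a to 0.02 without that of mouse 36. The difference of the Clec4d change between monocytes and macrophages went from 0.02 to -0.08 with DESeq2 size factors, and that between monocytes and neutrophils became -1.50 and passed with 20 cells.

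Some label means moved: Clec4n in Mac_Cd81 to 758.59 CPM and in Neut_Camp to 8.1114 CPM with 5 cells, and in Neut_Camp to 4.2627 CPM when pooled. Clec4d in Neut_PMN-MDSC moved to 3653.8 CPM with 20 cells and 3943 CPM with cells of at least 1000 UMIs, where Clec4e moved to 2649.2 CPM. In migDC, Clec4d and Clec4e moved to 2.5162 CPM when pooled, and Clec7a to 183.31 CPM with 20 cells or cells of at least 1000 UMIs. Clec7a in Neut_Camp moved to 106.53 CPM with 5 cells. Without thinning, more cells had a UMI by construction: 14.2%, 13.2%, 23.8% and 24.5% of monocytes for Clec4n, Clec4d, Clec4e and Clec7a, 48.1%, 32.5%, 18.4% and 33.1% of macrophages, 13.4%, 2.55%, 2.65% and 17.7% of DCs, and 7.93%, 46.7%, 48.1% and 27.8% of neutrophils. Of the 5 genes of like pattern, 3 (pseudocount of 1 CPM) and 2 (Spearman) stayed for Clec4n, 3 (pseudocount) for Clec4d, 2 (Spearman) for Clec4e, and 3 and 1 for Clec7a.

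Counts over all genes moved more. For distal normal lung and metastasis monocytes, 25 higher and 0 lower became 65 and 9 with the mouse block (which also leaves out mouse 17), 65 and 10 with batch as a term, 42 and 6 in DESeq2, and 178 and 88 with no filter, and for macrophages 85 and 34 became 341 and 101 with no filter. For tumor and core macrophages, 61 and 31 became 2 and 0 with batch as a term, 125 and 50 in DESeq2 and 95 and 188 with no filter, and for monocytes 15 and 10 became 0 and 0, 54 and 23, and 214 and 322. For tumor and core DCs 7 and 2 became 30 and 13 in DESeq2 and 18 and 50 with no filter. For margin and core monocytes 43 and 10 became 2 and 0 with no block, which also takes in unpaired samples (6 margins and 13 cores), so the 2 choices cannot be told apart.

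Low counts kept some genes out of the tests: Clec4n in all control and Pre-MET fits, in margin and core neutrophils and in distal normal and metastasis DCs, and Clec4d in margin and core monocytes. Not run were fits of control and Pre-MET macrophages, tumor and core neutrophils and margin and core DCs, which had too few samples, and a batch term for the paired margin and core fits.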
